A study of Ambystoma mexicanum with 61 samples.

Results

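*ELOVL6*, the elongase of long-chain fatty acids 6, was followed in bulk RNA-seq of axolotl tissues from 17 neotenic and 15 metamorphosed organs. The gene was found by the symbol in its identifier. 2 of the 23251 gene models carried it, and the model was chosen by its total count: AMEXTC_0340000057129_ELOVL6 held 45473 counts over 61 libraries and AMEXTC_0340000159512_elovl6 held 40, at most 4 in a library. The chosen model is 1 gene of 23251, with 7 exons and 4093 bases of exon on the minus strand of contig AMEXG_0030007778 of the AmexG v3.0.0 assembly, between bases 1494644 and 1942001. The smaller model lies inside that interval on the plus strand, between bases 1570730 and 1859118. It shares 1056 exonic bases with the chosen model, 25.8% of its exon length. The counting did not use strand, and fragments that overlap both models were left out, so the counts of *ELOVL6* come from the remaining 3037 bases and levels per length are understated to that extent. No other gene model overlapped its exons.

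The axolotl normally stays neotenic, an aquatic adult with gills, and metamorphoses after thyroid hormone. All animals were adults of 1 year of the d/d strain. The 34 neotenic libraries came from animals without hormone, 2 libraries for each of 17 tissues. The 27 metamorphosed libraries came from animals kept in 50 nM T4 (L-thyroxine) for about 12 days and then maintained for 2 weeks until the gills had gone. In the metamorphosed state 12 tissues were sequenced in 2 libraries each, and heart, brain and fore limb in 1. Gill and gonad were analysed in the neotenic state only. The methods name 2 neotenic and 2 metamorphosed animals, so libraries of different tissues share animals. The p-values take the libraries as independent and measure the spread between these libraries, not between more animals. The hormone, the time in treatment and the metamorphosed state cannot be told apart in this design. In bulk tissue, fewer cells of a type and less RNA per cell cannot be told apart either.

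Elongases of the ELOVL family are membrane proteins of the endoplasmic reticulum. They carry out the condensing step that adds a malonyl-CoA unit to a fatty acyl-CoA, the slow step of each elongation round. 3-ketoacyl-CoA reductase, a dehydratase and trans-2-enoyl-CoA reductase then complete the round. In mammals Elovl6 extends palmitate and palmitoleate, the products of de novo synthesis, to stearate and vaccenate. In mouse liver its transcript follows feeding and is driven by SREBP-1c together with the other lipogenic genes.

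Values are given as CPM, the usual count relative to the library total, with that total adjusted by a TMM factor for differences in RNA composition. Library totals ranged from 69278 to 27389476 counts. *ELOVL6* was counted in all 61 libraries, with 19 to 4940 counts in the neotenic and 3 to 3471 in the metamorphosed libraries. The lowest count, 3, belonged to metamorphosed skin replicate 1, the library of 69278 counts. Marker genes went against the label in a pair of neotenic libraries. The library labelled neotenic tail replicate 2 held 18493 CPM of the stomach gland markers *GKN1* and *AQP4* and 16.3 CPM of skeletal muscle markers. The library labelled neotenic stomach replicate 2 held 7.12 CPM of those stomach genes, 3376 CPM of the muscle markers and 16847 CPM of epidermis markers. The neotenic bladder libraries also differed, at 16.1 and 8368 CPM of the muscle markers. All labels were kept. The *ELOVL6* tests that compare the libraries labelled neotenic tail or stomach replicate 2 were also run without them. Tests within other tissues, such as hind limb and skin, take their spread from all libraries and are not given without that pair.

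Among the neotenic tissues, *ELOVL6* was highest in liver and lowest in gonad, and the group means spanned 251-fold. Neotenic liver held 310 and 700 CPM in its 2 libraries, 505 ± 276 (SD, n = 2). Cloacal chamber, the common chamber of gut and urogenital ducts, followed with 301 and 288 CPM. Its libraries agreed within 1.05-fold, and both lay below the lower liver library by a small margin. When scaled by the library total alone, the 2 liver libraries held 146 and 432 CPM and enclosed the 2 cloacal chamber libraries at 211 and 256 CPM, so the order of these organs depends on the scaling.

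A wide middle group of neotenic organs followed. Gill held 137 and 204 CPM, stomach 158 and 145 CPM, tail 121 and 166 CPM, and eye 175 and 94.5 CPM. Hind limb held 127 and 120 CPM and fore limb 94.2 and 123 CPM. In this run from gill to fore limb each tissue overlapped the next, and their means, from 171 down to 108 CPM, were not ordered beyond the spread. The 4 libraries labelled neotenic stomach and tail all lay between 121 and 166 CPM, so the doubt about those labels moved neither mean out of this range. Skin was lower at 70.0 and 66.7 CPM and overlapped brain at 67.3 and 55.4 CPM.

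Below these, bladder held 53.3 and 49.4 CPM, kidney 31.6 and 23.6 CPM and lung 22.4 and 24.4 CPM. Intestine, with 11.3 and 12.7 CPM, overlapped spleen, with 14.5 and 9.44 CPM. Heart held 3.19 and 7.45 CPM from 25 and 65 counts, and gonad 2.40 and 1.63 CPM from 19 and 35 counts. In all, 8 of the 16 neighbouring pairs in this order overlapped.

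The 16 neotenic tissues other than liver differed in *ELOVL6* by the quasi-likelihood F test of edgeR, with an adjusted p of 1.04e-09, or 3.27e-09 without the stomach and tail libraries in doubt. Such unevenness was common: 70.2% of all genes tested differed among the 16 tissues and 71.5% among all 17. The choice of the gene may also have rested on its level in tissues other than liver, so these p-values may depend on it. Liver, brain and skin, the organs in which mammalian Elovl6 is best known, were each set against the mean of the other 16 tissues. Neotenic liver exceeded that mean by 3.45 ± 0.20 (log2, SE), 10.9-fold, with 16.9% of genes called in this contrast. It is given with no test, since the gene may have been proposed for its level in these libraries. Brain differed by 0.23 ± 0.28 (log2, SE) and skin by 0.35 ± 0.27 (log2, SE), and neither passed the test (edgeR, adjusted p = 0.568 and 0.566), where 39.6% and 6.99% of genes were called.

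**Figure D1:**
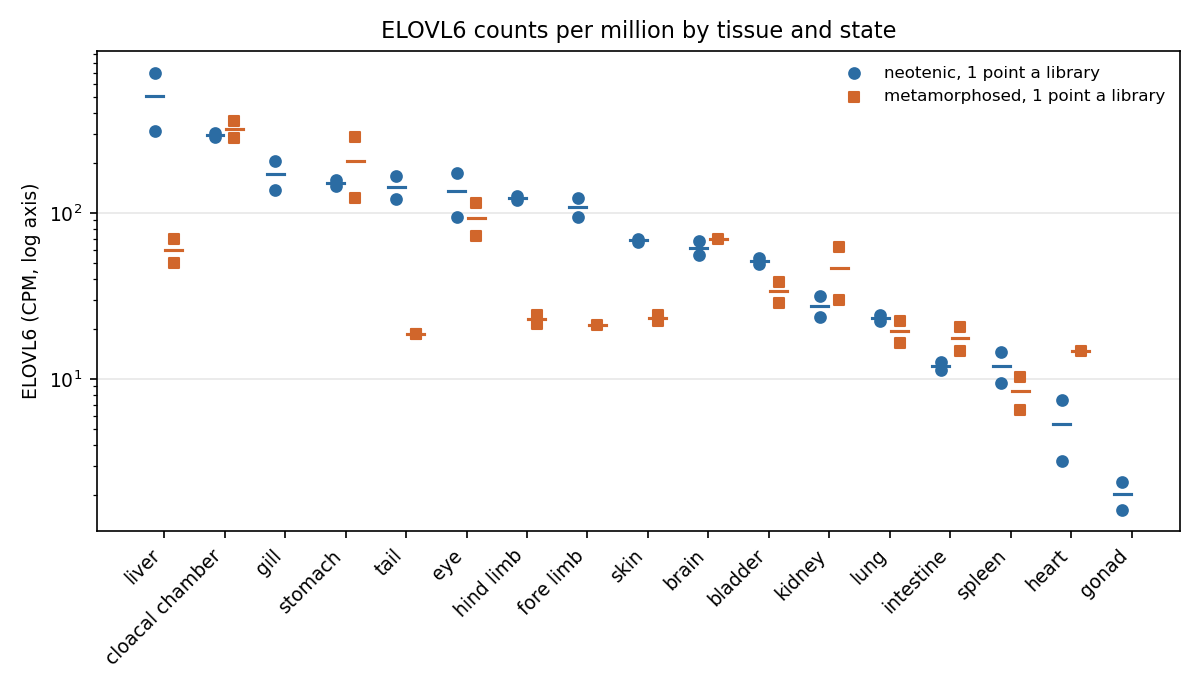
*ELOVL6* level in CPM (log axis) by tissue, with neotenic libraries as blue circles, metamorphosed libraries as orange squares and the group mean as a bar; tissues are ordered by the neotenic mean. Liver, tail, fore limb, hind limb and skin show metamorphosed squares far below the neotenic circles, with liver falling from a mean of 505 to 59.7 CPM, while cloacal chamber, stomach, eye, kidney and spleen overlap.

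In the metamorphosed animals the order was different at its top, and the means of 15 tissues spanned 38.0-fold. The neotenic span of 251-fold ended at gonad, which was not analysed in this state, so the 2 spans cover unlike tissues. Among the tissues with both states, neotenic means ran from 505 CPM in liver to 5.32 CPM in heart. Metamorphosed means ran from 320 CPM in cloacal chamber to 8.41 CPM in spleen. Cloacal chamber led with 283 and 356 CPM and overlapped stomach, with 124 and 287 CPM. Eye held 114 and 72.8 CPM, and the brain library held 69.4 CPM, with a 95% interval of 64.0 to 75.1 CPM (Clopper-Pearson, counting error only). Liver came at rank 5 of 15 tissues with 69.8 and 49.7 CPM, or at rank 8 when scaled by the library total alone. In CPM with the TMM factor, liver thus went from the top of the neotenic order to overlap brain and kidney, and it lay above bladder.

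Kidney held 30.0 and 62.6 CPM and bladder 28.8 and 38.5 CPM in metamorphosed animals. Skin, with 24.2 and 22.2 CPM, hind limb, with 24.4 and 21.4 CPM, the fore limb library, with 21.0 CPM, and tail, with 18.5 and 18.7 CPM, now lay within a narrow band. Lung, with 16.4 and 22.2 CPM, and intestine, with 14.8 and 20.4 CPM, fell into the same band. Heart, with 14.6 CPM in its library, and spleen, with 10.3 and 6.52 CPM, closed the order. Of the 14 neighbouring pairs, 8 overlapped. Limbs, tail and skin, which lay above lung and intestine in the neotenic order, now shared their range.

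In liver the level went from 310 and 700 CPM in neotenic to 69.8 and 49.7 CPM in metamorphosed liver, and the states did not overlap. The difference was -3.08 ± 0.46 (log2, SE), 8.46-fold lower in the metamorphosed liver. *ELOVL6* was among the 2 largest falls that an earlier naming rule picks in liver, so this value is a description with no test. For all genes, 4 were called in liver, 0.0198%, of which 0.00989% fell. The neotenic libraries differed by 2.26-fold, and without replicate 2 of neotenic liver the difference was -2.38 (log2). The liver and tail differences were close: -3.08 and -2.95 (log2) here, and -3.22 and -3.25 when scaled by the library total alone, so their order depends on the scaling. Hepatocyte markers were high in all 4 libraries, summing to between 46650 and 92356 CPM over 7 genes including *AMBP*, *AHSG* and *APOA1*, and none of the 7 was called. The leukocyte markers, 5 genes including *PTPRC* and *CD74*, summed to 2093 and 2679 CPM in neotenic and to between 3866 and 5116 CPM in metamorphosed liver, with none called. The part of those cells in the difference was not tested.

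Tail held 121 and 166 CPM in the neotenic and 18.5 and 18.7 CPM in the metamorphosed animals, with no overlap. Between 10.6% and 38.0% of all genes lay lower without overlap in the 12 tissues. The difference was -2.95 ± 0.46 (log2, SE), 7.71-fold lower, and passed the test (edgeR quasi-likelihood, adjusted p = 0.00132), where 0.717% of all genes were called and 0.356% fell. The comparison that proposed *ELOVL6* is not known, so its p-values in tail, hind limb and skin may depend on that choice. Since neotenic tail replicate 2 carried stomach genes, the contrast was also fitted without it, against the remaining neotenic library at 121 CPM. *ELOVL6* then differed by -2.70 ± 0.51 (log2, SE) and stayed past the threshold (edgeR, adjusted p = 0.0116). Fitted on the 4 tail libraries alone the difference was -2.93 (log2) and missed the threshold (edgeR, adjusted p = 0.621).

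Hind limb fell from 127 and 120 CPM to 24.4 and 21.4 CPM, again with no overlap and with libraries of each state within 1.14-fold of each other. The difference was -2.43 ± 0.45 (log2, SE), 5.39-fold lower (edgeR, adjusted p = 0.0160), where 0.599% of genes were called, 0.277% as lower and 0.322% as higher. The adjusted p rose to 0.0631 without neotenic replicate 2 and to 0.221 without metamorphosed replicate 2, with differences of -2.47 and -2.34 (log2), and it was 0.318 on the 4 hind limb libraries alone. Fore limb gave the same kind of values with 1 metamorphosed library: 94.2 and 123 CPM in neotenic against 21.0 CPM, with a 95% interval of 18.5 to 23.8 CPM, in metamorphosed animals. The neotenic mean was 5.16-fold the metamorphosed value, and no test was run.

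Skin held 70.0 and 66.7 CPM in the neotenic and 24.2 and 22.2 CPM in the metamorphosed animals. The metamorphosed value of 24.2 CPM rested on 3 counts, with a 95% interval of 4.98 to 70.6 CPM that reached the neotenic values, while 22.2 CPM rested on 166 counts. The difference was -1.59 ± 0.48 (log2, SE), 3.00-fold lower, and lay at the edge of the threshold (edgeR, adjusted p = 0.0490). In skin 4.89% of genes were called, 2.68% as lower and 2.21% as higher, and the median of all genes was -0.39 (log2), so the fall of *ELOVL6* beside that of all genes was smaller than its own value. Without metamorphosed replicate 1 the difference was -1.62 ± 0.57 (log2, SE) with an adjusted p of 0.0839 (edgeR). It also missed the threshold with the size factors of DESeq2 in edgeR (-1.42, adjusted p = 0.0828), with no filter on low counts, and when any other skin library was left out.

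**Figure D2:**
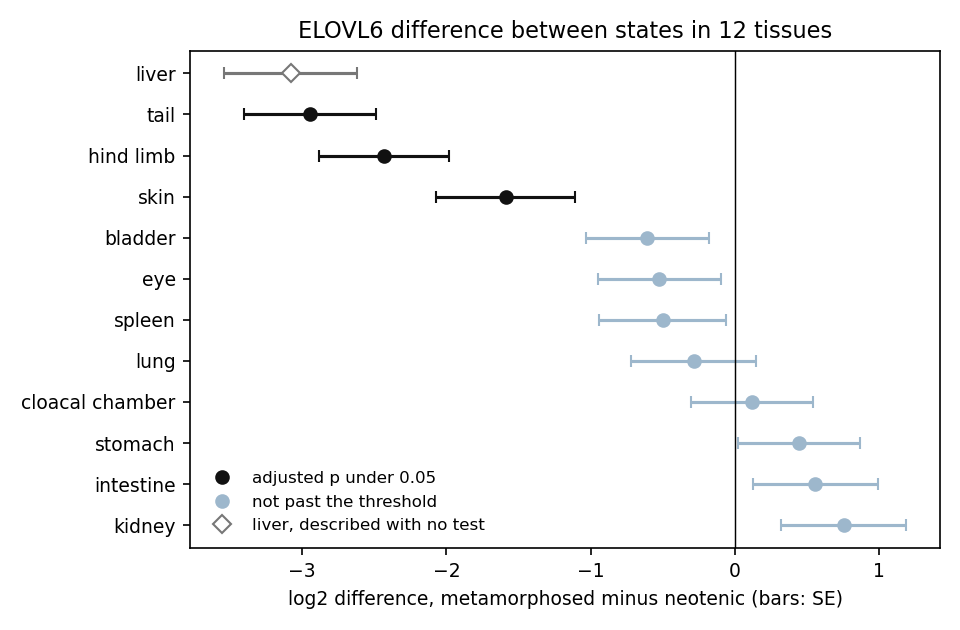
Difference of *ELOVL6* between states (log2, metamorphosed minus neotenic) in the 12 tissues with 2 libraries per state; points are the edgeR estimates, bars are standard errors, and the open diamond marks liver, which has no test. Liver, tail, hind limb and skin lie at -3.08, -2.95, -2.43 and -1.59, and the other 8 tissues lie between -0.61 and 0.75.

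The other 8 tissues did not pass the test (edgeR, lowest adjusted p = 0.796), and their differences ran from -0.61 to 0.75 on the log2 scale, with standard errors between 0.42 and 0.44. Bladder held 53.3 and 49.4 against 28.8 and 38.5 CPM, a difference of -0.61 ± 0.43 (log2, SE), where 0.00495% of genes were called. Its neotenic libraries differed in muscle markers, and the difference was -0.55 without neotenic replicate 1 and -0.66 without neotenic replicate 2. Eye, at -0.53 ± 0.43 (log2, SE), spleen, at -0.50 ± 0.44 (log2, SE), where 0.49% were called, and lung, at -0.29 ± 0.43 (log2, SE), did not pass either. Cloacal chamber, the metamorphosed organ with the highest level, differed by 0.12 ± 0.42 (log2, SE).

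Stomach differed by 0.44 ± 0.42 (log2, SE), or by 0.38 without neotenic replicate 2. Intestine differed by 0.56 ± 0.43 (log2, SE) and kidney by 0.75 ± 0.43 (log2, SE), from 31.6 and 23.6 to 30.0 and 62.6 CPM. For eye, lung, cloacal chamber, stomach, intestine and kidney, 0% of all genes were called by edgeR, with 433 to 1754 genes at an unadjusted p under 0.05 in these tissues and 24 to 385 called by DESeq2. Brain, at 67.3 and 55.4 against 69.4 CPM, and heart, at 3.19 and 7.45 against 14.6 CPM, had 1 metamorphosed library and no test. The heart library exceeded the neotenic mean by 2.75-fold.

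The difference between states itself differed between the 11 tissues other than liver, in which the gene may have been picked. The test of state by tissue gave an adjusted p of 0.0169 (edgeR quasi-likelihood F test), where 0.0791% of genes passed, and 0.0171 without the stomach and tail libraries in doubt. The mean of these 11 differences was -0.64 ± 0.13 (log2, SE; edgeR, adjusted p = 7.83e-04), where 17.5% of genes were called, and -0.62 ± 0.14 (log2, SE; edgeR, adjusted p = 0.00193) without those libraries. *ELOVL6* ranked 4 by p in the test of state by tissue without liver. Its p-values for that test and for the mean may also depend on how the gene was chosen. With liver included the mean was -0.84 ± 0.13 (log2, SE), given with no test for *ELOVL6*. Over all genes, the 12 tissues gave 17.9% called for the mean and 0.0693% for the interaction. With the counts of both gene models summed, tail, hind limb and skin were past the threshold as well.

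In tail, hind limb and skin, some markers of the neotenic epidermis fell as *ELOVL6* did. Of all genes, 0.356% fell in tail, 0.277% in hind limb and 2.68% in skin. Of 5 epidermis markers, *KRT12* and *KRT124*, which encode keratins, fell in each of these tissues (edgeR, adjusted p between 0.0195 and 0.0463), and *KRT4*, *TP63* and *EPCAM* did not pass. In tail both calls held without neotenic replicate 2 (edgeR, adjusted p = 0.0116 for *KRT12* and 0.0209 for *KRT124*). *TP63* went the other way in tail, at 1.94 ± 1.31 (log2, SE), or at 0.97 without neotenic replicate 2. It was at -1.34 in hind limb and -2.59 in skin. In hind limb *KRT12* went from 7346 and 2403 CPM to 2.23 and 3.23 CPM. The summed markers lay between 15726 and 26649 CPM in neotenic skin and hind limb and between 191 and 783 CPM in the metamorphosed libraries of these tissues. In tail they were 19294 CPM in neotenic replicate 1, 334 CPM in replicate 2 and 424 and 1176 CPM in the metamorphosed libraries. Fore limb went from 16369 and 17294 CPM to 756 CPM. Their part in the fall of *ELOVL6* was not tested. In liver the same markers summed to between 70.3 and 142 CPM, and no epidermis marker was called, where 0.0198% of all genes were. The 2 keratins were lower in metamorphosed liver too, from low levels. *KRT12* went from 21.6 and 3.83 to 0 and 0.08 CPM, and *KRT124* from 15.2 and 2.98 to 0 and 0 CPM.

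Metamorphosed libraries of limb, skin and some other tissues also carried transcripts of other organs. Intestinal epithelium markers, 5 genes including *VIL1* and *CDX1*, summed to 7.80 and 35.1 CPM in neotenic hind limb and to 126 and 3345 CPM in the metamorphosed ones. In hind limb 1 of the 5 rose, where 0.322% of all genes did. In skin they went from between 7.82 and 23.6 CPM to 346 CPM in the library of 69278 counts and 3153 CPM in the other. In skin 3 of the 5 rose, where 2.21% of all genes did. The intestinal list was also high in liver itself, at 1410 to 7923 CPM in its 4 libraries. Hepatocyte markers reached 719 CPM in metamorphosed hind limb, 857 CPM in metamorphosed skin and 913 CPM in metamorphosed fore limb. Intestine itself held 14.8 and 20.4 CPM of *ELOVL6* and metamorphosed liver at most 69.8 CPM. Metamorphosed cloacal chamber, where the intestinal list summed to 6292 and 13675 CPM, held 283 and 356 CPM of *ELOVL6*. The part of these transcripts in the results was not tested.

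The other ELOVL genes were compared as CPM per kilobase of exon, so that levels can be set side by side between genes. Models were found for *ELOVL1*, *ELOVL2*, *ELOVL4*, *ELOVL5* and *ELOVL7*, while *ELOVL3* was not matched by symbol. *ELOVL1*, which makes very long saturated chains for sphingolipids, had the highest mean level of the 6 in all 32 groups. It ran from 37.1 CPM per kb in neotenic eye to 399 in metamorphosed liver. In neotenic eye the libraries of *ELOVL6*, at 23.1 and 42.7 CPM per kb, enclosed those of *ELOVL1*, at 35.1 and 39.1. Their order in that organ is therefore not settled. *ELOVL5*, which extends polyunsaturated fatty acids, was highest in neotenic liver at 190 and in metamorphosed spleen at 163 CPM per kb. *ELOVL2*, which also extends polyunsaturated chains, reached 53.2 CPM per kb in neotenic and 67.6 in metamorphosed liver and otherwise at most 11.1, in eye. *ELOVL4*, known for ultra-long chains of retina and skin, stayed at or under 4.45 CPM per kb, its level in neotenic eye. *ELOVL7*, which extends saturated chains, reached 85.1 CPM per kb in neotenic cloacal chamber.

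Per kilobase, *ELOVL6* was at rank 2 or 3 of the 6 genes in 10 of 17 neotenic tissues and in 5 of 15 metamorphosed ones. Its level was divided by all 4093 bases of exon, so its ranks and shares may be understated. Its share of the summed ELOVL level within a library does not depend on the scaling between libraries. In neotenic liver this share was 12.7% and 29.1%, and in metamorphosed liver 3.10% and 1.70%. In tail it went from 11.5% and 13.0% to 1.08% and 1.49%, in hind limb from 10.1% and 14.8% to 1.95% and 2.06%, and in skin from 6.12% and 7.55% to 4.32% and 2.33%. No overlap was seen in these 4 tissues, but this was common. The share was also lower without overlap in bladder, eye, spleen and stomach. It was higher without overlap in cloacal chamber, intestine and kidney. Of the tissues with 2 libraries per state, lung alone overlapped. Cloacal chamber stood at 15.3% and 16.9% in neotenic and 20.7% and 19.2% in metamorphosed animals, and neotenic eye held 30.1% and 22.8%.

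No other ELOVL gene was called in any of the 12 tissues (edgeR quasi-likelihood, lowest adjusted p = 0.183, for *ELOVL2* in tail). Over all genes, between 0% and 4.89% were called in these tissues, so nothing about the family is read from this. In liver, *ELOVL1* differed by 0.82 ± 0.56 (log2, SE), *ELOVL2* by 0.35 ± 0.53 (log2, SE) and *ELOVL5* by -0.49 ± 0.49 (log2, SE). *ELOVL7* stood at 0.40, 0.71 and 0.65 CPM in both neotenic livers and metamorphosed replicate 1 and at 72.8 CPM in metamorphosed replicate 2, so 1 library set its difference. Over the 12 tissues *ELOVL4* rose in the mean by 1.04 ± 0.30 (log2, SE; edgeR, adjusted p = 0.0137), and *ELOVL1*, *ELOVL2*, *ELOVL5* and *ELOVL7* did not pass. In that contrast, which includes the libraries in doubt, 17.9% of all genes were called. *ELOVL4* held few counts, 1945 over all libraries, with neotenic means of 0.07 CPM in stomach and 0.17 CPM in cloacal chamber. Its differences ran from -0.69 ± 0.89 in eye to 2.32 ± 1.23 in cloacal chamber and 2.37 ± 1.44 in stomach (log2, SE).

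**Figure D3:**
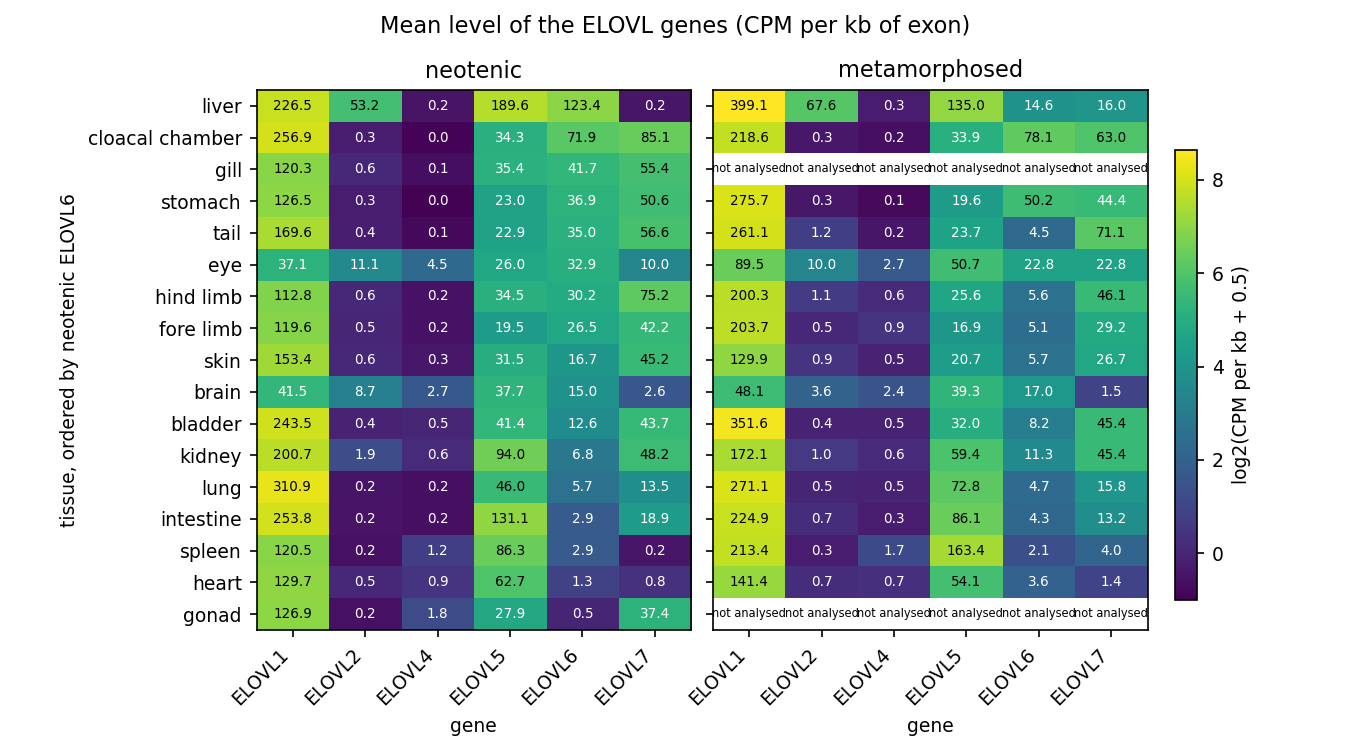
Mean level of the 6 ELOVL genes in CPM per kilobase of exon, by tissue (rows, ordered by neotenic *ELOVL6*) and state (panels); the colour gives log2(CPM per kb + 0.5) and the number in each cell the level. The *ELOVL6* column drops from 123 to 14.6 in liver and from 35.0 to 4.54 in tail between the panels, while *ELOVL1* is at least 37.1 in every group.

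The enzymes that work with *ELOVL6* were described from 4 lists of 54 genes, of which 45 were matched and tested. The lists hold the elongation cycle and desaturases, de novo fatty acid synthesis, regulators of lipogenic genes, and ceramide synthesis. In hind limb 2 of 45 rose and none fell, where 0.322% of all genes rose and 0.277% fell. In skin 2 rose and 1 fell, where 2.21% of all genes rose and 2.68% fell. In the other 10 tissues edgeR called none of the 45, with 0 to 10 at an unadjusted p under 0.05 and 0 to 4 called by DESeq2. Over all 20216 genes tested, 433 to 2371 had such a p in these tissues, and DESeq2 called 24 to 634. Few genes of any kind were called in these 10 tissues, for example 0.0198% in liver and 0.717% in tail, so nothing about the lists is read from these counts.

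In hind limb *ACSL5*, an acyl-CoA synthetase of the intestine in mammals, rose from 1.66 and 0.19 to 19.4 and 397 CPM, by 7.80 ± 1.54 (log2, SE; edgeR, adjusted p = 0.0212). *FADS2*, the delta-6 desaturase, rose from 2.58 and 0.93 to 5.59 and 73.2 CPM, by 4.49 ± 1.08 (log2, SE; edgeR, adjusted p = 0.0415). Metamorphosed replicate 2, the higher library for both genes, held 3345 CPM of intestinal epithelium markers, whose part in the rise was not tested. Without it *ACSL5* differed by 4.38 ± 1.35 and *FADS2* by 1.66 ± 1.09 (log2, SE), and none of the 45 was called, while calls over all genes went from 121 to 2. In skin *ACSL5* rose from 1.29 and 0.66 to 40.3 and 381 CPM (edgeR, adjusted p = 0.00911) and *FADS2* from 4.84 and 3.01 to 16.1 and 70.5 CPM (edgeR, adjusted p = 0.0393). The ceramide synthase *CERS5* fell from 19.6 and 17.9 to 0 and 1.07 CPM, the 0 being in the library of 69278 counts (edgeR, adjusted p = 0.0302). Without metamorphosed skin replicate 2 the contrast rested on the library of 69278 counts, *ACSL5* differed by 5.32 ± 1.90 and *FADS2* by 2.03 ± 1.97 (log2, SE), and none of the 45 was called, while calls over all genes went from 989 to 39. Without replicate 1 there were 4 of 45 and 915 over all genes.

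The lists were also read by their medians. In liver the median difference was -0.64 (log2) over the 9 genes of de novo synthesis, 0.21 over the 14 of the elongation cycle and desaturases, 0.26 over the 11 regulators and 0.15 over the 11 of ceramide synthesis, beside 0.06 over all genes tested. In tail the medians were -0.64, 0.76, -0.53 and -0.49 in the same order, beside 0.00 over all genes. Without neotenic tail replicate 2 they were -0.49, 1.00, -0.31 and -0.16, beside 0.12. Over the mean of the 12 tissues 5 genes rose (*ACSL5*, *ACSL3*, *FADS2*, *FADS1* and *TECRL*) and 2 fell (*SLC25A1*, the citrate carrier, and the dihydroceramide desaturase *DEGS1*). These 7 of 45 stood near the 17.9% of all genes called in that contrast.

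In liver 5 of the 45 listed genes had an unadjusted p under 0.05, where 667 of all 20216 genes tested did. The 5 were picked by that p and named after their values were seen, and a joint change of these genes was not tested. *SCD*, the stearoyl-CoA desaturase that acts on the products of Elovl6, stood at 7809 and 6089 CPM in neotenic and 1640 and 810 CPM in metamorphosed liver, -2.50 ± 1.00 (log2, SE). *INSIG1*, which retains SREBP in the endoplasmic reticulum, stood at 475 and 718 against 62.3 and 148 CPM, -2.51 ± 0.90 (log2, SE). Fatty acid synthase *FASN* stood at 356 and 661 against 157 and 101 CPM, -1.98 ± 0.66 (log2, SE), and acetyl-CoA carboxylase *ACACA* at 291 and 347 against 144 and 53.6 CPM, -1.69 ± 0.57 (log2, SE). The ceramide synthase *CERS1* was the 1 of the 5 with a positive difference, 2.35 ± 0.76 (log2, SE). None of the 5 passed the test over all genes (edgeR, adjusted p between 0.941 and 1). *SREBF1*, the gene of SREBP-1, held 12.3 and 10.2 against 14.6 and 5.59 CPM, and *ACLY*, the ATP citrate lyase, 97.5 and 73.0 against 50.4 and 178 CPM. In tail *FASN* was at -0.84 ± 0.64 and *SCD* at 1.36 ± 0.96 (log2, SE), or at -1.34 ± 0.74 and 0.93 ± 1.21 without neotenic replicate 2, and neither passed the test in either fit.

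**Figure D4:**
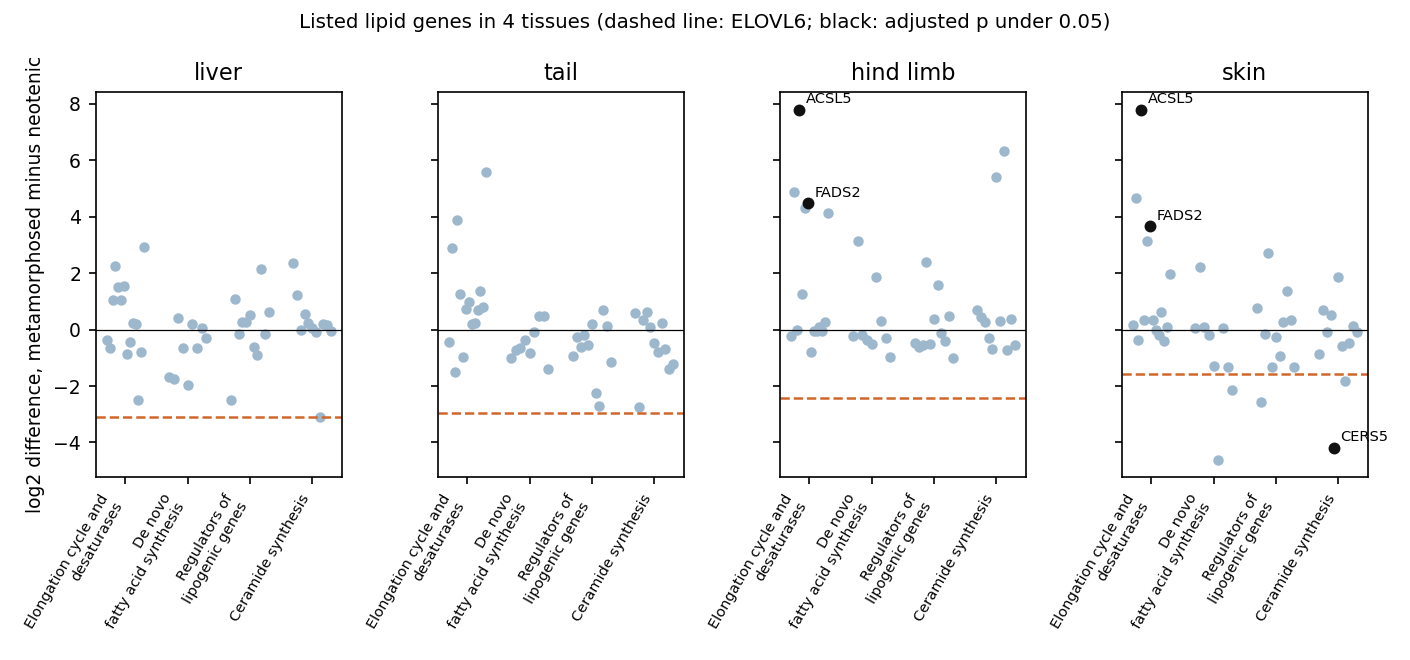
Difference between states (log2, metamorphosed minus neotenic) of the 45 tested genes of the 4 lipid lists in liver, tail, hind limb and skin; each point is a gene, black points passed the adjusted threshold and the dashed line gives *ELOVL6*. *ELOVL6* lies at or near the lower edge of the points in liver (-3.08) and tail (-2.95), and the labelled genes *ACSL5* and *FADS2* lie far above 0 in hind limb and skin.

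The genes most like *ELOVL6* were sought over the mean log2(CPM + 1) of the 32 state and tissue groups, among 10158 genes with a symbol and at least 5 CPM in a group. These groups share animals and libraries of unequal depth, and correlations are descriptions. The median Pearson r of all genes was -0.01. *SYTL5*, a synaptotagmin-like protein of vesicle traffic, came first with r = 0.83 (Spearman rho 0.87). *MAP7*, a microtubule-associated protein, followed with 0.75, *CCDC102A* with 0.74, *ACSBG1*, an acyl-CoA synthetase, with 0.69, and the glycolytic enolase *ENO1* with 0.69. *RABGAP1L* with 0.68, *AACS*, the cytosolic acetoacetyl-CoA synthetase, with 0.68 and *DBNDD1* with 0.67 completed the 8. Ranked by Spearman rho, 4 of these 8 stayed among the first 8.

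The pattern of *SYTL5* followed that of *ELOVL6* in some organs and departed from it in others. *SYTL5* held 96.2 and 103 CPM as means of neotenic and metamorphosed cloacal chamber, 81.8 and 13.1 CPM in tail, and 99.6 and 20.3 CPM in fore limb. In liver it held 38.8 and 19.8 CPM, where *ELOVL6* held 505 and 59.7 CPM, and in neotenic spleen the *SYTL5* mean was 0.25 CPM while the *ELOVL6* libraries held 14.5 and 9.44 CPM. The means of the states also ran opposite ways in bladder, intestine, spleen and kidney, where *ELOVL6* went from 27.6 to 46.3 CPM and *SYTL5* from 39.8 to 26.1 CPM. In liver *ACSBG1* held 152 and 55.0 CPM and *AACS* 153 and 150 CPM. Of the listed lipid genes, *ACSS2*, the acetyl-CoA synthetase, came nearest with r = 0.62, rank 23. *ACACA* had 0.55, *SREBF2* 0.51, *FASN* 0.50, *SREBF1* 0.20 and *SCD* 0.23.

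**Figure D5:**
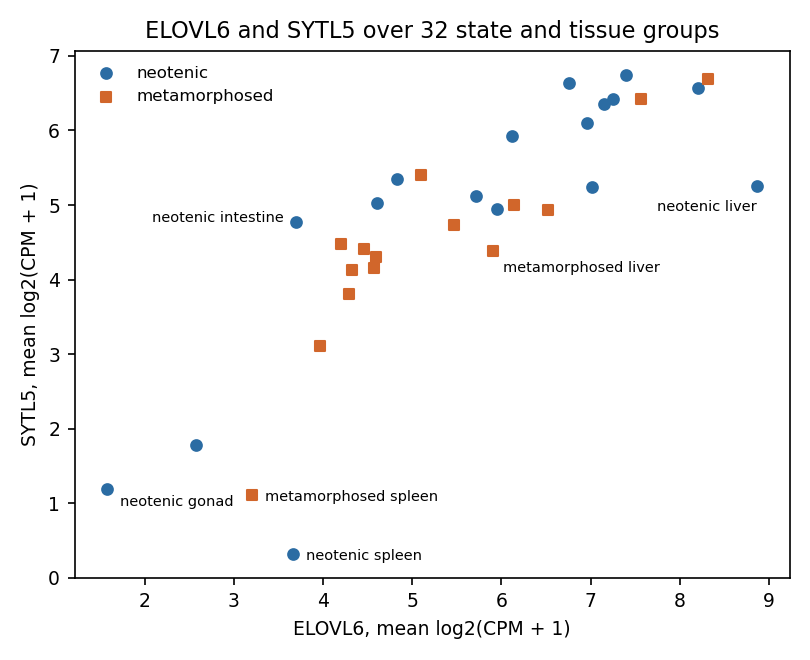
Mean log2(CPM + 1) of *SYTL5* against that of *ELOVL6* in the 32 state and tissue groups, neotenic as blue circles and metamorphosed as orange squares. The groups rise together (r = 0.83), and neotenic liver lies to the right of the other groups at a *SYTL5* level of 38.8 CPM.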

How the data were processed

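Poly(A) RNA from 61 tissue samples was tagmented and sequenced as pairs. Per the file headers, the authors counted fragments per gene with featureCounts 1.6.0 without strand. The deposited counts are whole numbers per gene model of AmexG v3.0.0 and were not normalized. The submitters' processing notes also name STAR and DESeq2. Totals ranged from 69278 to 27389476 counts, with a median of 7899985.

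Counts were fitted with edgeR 4.0.16 (R 4.3.3): TMM scaling, filterByExpr over groups, 1 coefficient per state and tissue, quasi-likelihood tests, and Benjamini-Hochberg adjustment over the 20216 genes tested (18982 in the fit of neotenic libraries alone), with a threshold of 0.05. The SE is the absolute log2 difference divided by the square root of F. Fits that leave out a single library keep the dispersion trend of the fit with all its libraries. Fits without both libraries in doubt repeat the filter and estimate the dispersion again. Exact Clopper-Pearson intervals (95%) cover counting error only. Likeness used log2(CPM + 1). DESeq2 1.42.0, other scalings, no filter, single tissues, left-out libraries and a replicate block were alternatives, and those without liver, without liver and the libraries in doubt, scaled by the library total alone, and of list calls without single libraries were chosen after seeing the data.

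The reported fits have no replicate block. The labels call the replicate number a batch, so a block was fitted as an alternative. The deviations of samples with the same number correlated between -0.44 and 0.28 in 12 tissues, over 0.1 in 3. The gene, lists and tests were chosen with earlier results of these data known. Genes named by rule were the ELOVL genes, at most 3 called listed genes a tissue and the 8 most like *ELOVL6*. Other listed genes were named outside that rule: those not called in liver and tail, those called in the mean and those given by likeness. The listed genes missing by symbol were 9 of 54. Sequences were not used here.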

Additional observations from a re-analysis of the deposited data

Results flagged for a closer look

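The difference of *ELOVL6* between the states differed between the 11 tissues other than liver by the test of state by tissue (edgeR quasi-likelihood F test, adjusted p = 0.0169). With liver the adjusted p was 0.00170, but that fit includes the values for which the gene may have been picked, and nothing is read from it. The choice of the gene may also have rested on other tissues, so the test without liver may depend on it too. The metamorphosed minus neotenic difference (log2) was -2.95 in tail, -2.43 in hind limb and -1.59 in skin, and the 8 tissues that did not pass ranged from -0.61 to 0.75.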

How the results depend on the processing

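The state differences of *ELOVL6* kept their direction except in 2 fits. Cloacal chamber was at -0.0575 (log2) without metamorphosed replicate 2, and stomach at -0.29 without metamorphosed replicate 2. With only the 4 libraries of a tissue, tail was at -2.93 (adjusted p = 0.621), hind limb at -2.43 (0.318) and skin at -1.51 (0.0826), with fewer libraries to estimate the spread. Skin was at -1.42 (0.0828) with DESeq2 size factors and -1.60 (0.0567) with no filter, and the cause was not tested. Scaled by the library total alone, skin was at -0.98, tail at -3.25, spleen at -0.0375 and intestine at 0.85. Leaving out each library gave -3.55 to -2.38 in liver, -3.16 to -2.70 in tail, -2.53 to -2.34 in hind limb, -1.62 to -1.50 in skin, -0.06 to 0.28 in cloacal chamber and -0.29 to 0.93 in stomach. The replicate block changed no *ELOVL6* call: with it over all libraries tail was at -2.94, hind limb at -2.43 and skin at -1.61.

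DESeq2 called 2 of the 45 listed genes in bladder, 1 in eye, 5 in hind limb, 3 in intestine, 6 in skin, 2 in spleen, 1 in stomach and 4 in tail. Without metamorphosed replicate 2 the count was 0 in hind limb and 0 in skin, and without replicate 1 it was 4 in skin. Over all genes, DESeq2 called 314 in bladder (1 by edgeR), 1377 in hind limb (121), 90 in liver (4), 1797 in skin (989), 410 in spleen (99), 634 in tail (145) and 1154 in the interaction (14). The block within each state gave 681 in hind limb, 194 in spleen, 302 in tail and 33 in the interaction. Without the libraries labelled neotenic stomach and tail replicate 2 hind limb had 686 and the interaction 113 (112 without liver as well, against 16 with those libraries). Without stomach, tail and skin the mean had 1992 (3622). Depth limits metamorphosed skin most, where replicate 1 holds 3 counts of *ELOVL6*.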
